A study of Mus musculus with 2 samples.

Results

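The vascular growth factors and their receptors are the 9 genes Vegfa, Vegfb, Vegfc, Pgf, Flt1, Kdr, Flt4, Nrp1 and Nrp2. They were taken by gene symbol from a table of 32285 genes, and all 9 were found once in both libraries. Tumours of 4T1 cells, a mouse line used as a model of triple-negative breast cancer, had been grown in the mammary fat pad from cells mixed with Matrigel. The mice received either β-elemene (spelled beta-elemene in the plots), a plant sesquiterpene, at 30 mg/kg by intraperitoneal injection every day, or the same volume of normal saline (vehicle), and the tumours were taken after 18 days of treatment. Each group was 1 single-cell RNA library made with 3' droplet chemistry. The labels give neither the strain, age and number of the mice nor whether tumours were pooled.

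Vascular endothelial growth factors are secreted proteins that drive the growth and leakiness of vessels. VEGFA binds the receptor tyrosine kinases FLT1 and KDR, of which KDR carries most of the growth signal in endothelium, while FLT1 binds the ligand tightly but signals weakly and also occurs as a soluble decoy. VEGFB and PGF bind FLT1, and VEGFC binds FLT4, the receptor of lymphatic vessels, and after processing also KDR. Neuropilins NRP1 and NRP2 are co-receptors for these ligands and for class 3 semaphorins. Transcription of Vegfa is induced in cells short of oxygen.

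The vehicle library held 168750895 UMIs (unique molecular identifiers, each marking 1 captured RNA molecule) in 11324 barcodes, and the β-elemene library 157282740 in 11539. Of the barcodes 37 occurred in both libraries. After filters and removal of called doublets 10465 and 10546 cells were left. The cells were grouped into classes by clustering without the 9 genes and by fixed marker genes, so each class name is to be read as malignant-like, macrophage-like and so on. Clusters that held 582 and 624 cells kept no name. Among malignant cells cluster 4 was the largest in the vehicle library (1027 of 3755 cells, beside 569 of β-elemene), and cluster 3 in the β-elemene library (1033 of 2886 cells, beside 827 of vehicle). Markers of other classes moved with treatment inside some classes. Summed malignant markers stood at 133 CPM in vehicle and 459.6 in β-elemene in endothelial cells (CPM is the counts-per-million unit, UMIs of a gene scaled to the UMI total of the class), with none of the 8 listed markers at 0. Their part in the results was not tested.

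Positions are those of the mm10 build. Vegfa lies on the minus strand at chr17:46016993-46032369, Vegfb on the minus strand at chr19:6982473-6987651, Vegfc on the plus strand at chr8:54077606-54187096 and Pgf on the minus strand at chr12:85166635-85177790. Among the receptors Flt1 lies at chr5:147561604-147726011 and Kdr at chr5:75932827-75978458, both on the minus strand, and Flt4 on the plus strand at chr11:49609263-49652739. Nrp1 lies at chr8:128358604-128503363 and Nrp2 at chr1:62703285-62818695, both on the plus strand. Nrp2 overlaps an antisense gene that was counted too, Gm29083, and whether counting used strand is not given in the sources used here. The 3' counts do not separate soluble from membrane-bound Flt1, nor the protein isoforms of Vegfa.

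Promoter windows of 250 bases before an annotated start, from RefSeq (GRCm38.p6), matched all 9 genes, with 11 windows. The windows were searched on both strands for ACGTG and GCGTG, the core letters that hypoxia-inducible factors bind. Of all 32851 windows of that length 38.6% held at least 1 of them, and 7 of the 11 windows did. The windows of Vegfa, Flt1 and Vegfb are shown because Vegfa and Flt1 had malignant ratios of β-elemene over vehicle below 1, of 0.716 and 0.683, while the interval for Vegfb spanned 1. Capitals mark the motif on either strand (CACGC is GCGTG read on the other strand). The upstream window of Vegfa at chr17:46032378-46032627 holds none, that of Flt1 at chr5:147726012-147726261 holds 1 and that of Vegfb at chr19:6987652-6987901 holds 2. The other Vegfa window, before an internal start at chr17:46025164-46025413 and not shown, holds 1 ACGTG and 1 GCGTG. All 3 printed windows are on the minus strand and written 5′ to 3′.
Vegfa: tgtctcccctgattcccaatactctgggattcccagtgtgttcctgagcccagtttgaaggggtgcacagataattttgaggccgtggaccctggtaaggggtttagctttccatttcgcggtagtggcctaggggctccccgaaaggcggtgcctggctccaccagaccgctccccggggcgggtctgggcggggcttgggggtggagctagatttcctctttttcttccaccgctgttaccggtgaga
Flt1: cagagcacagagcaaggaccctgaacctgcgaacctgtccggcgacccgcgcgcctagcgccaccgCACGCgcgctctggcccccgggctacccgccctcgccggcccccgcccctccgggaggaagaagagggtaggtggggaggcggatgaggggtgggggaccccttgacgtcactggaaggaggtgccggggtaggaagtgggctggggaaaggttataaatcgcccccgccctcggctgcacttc
Vegfb: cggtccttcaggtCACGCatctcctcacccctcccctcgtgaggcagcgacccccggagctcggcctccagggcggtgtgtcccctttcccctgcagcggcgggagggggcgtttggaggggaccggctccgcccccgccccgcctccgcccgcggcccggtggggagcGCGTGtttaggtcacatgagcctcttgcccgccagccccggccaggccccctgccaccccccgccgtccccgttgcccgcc

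The ligands had their highest levels in other classes than Flt1, Kdr, Flt4 and Nrp1, though several classes held both ligands and receptors. Levels are given in CPM with exact 95% Poisson intervals, and ratios are β-elemene over vehicle with exact 95% intervals. All intervals cover counting error only, since with 1 library per group there is no replicate check and no test. Vegfa was highest in fibroblasts, monocytes and macrophages and Pgf in fibroblasts, while Vegfb was highest in malignant cells and Vegfc in fibroblasts. Flt1, Kdr, Flt4 and Nrp1 were all highest in endothelial cells, in both libraries. Nrp2 was spread most widely, with more than 50 CPM in malignant, endothelial, fibroblast, pericyte, macrophage, monocyte and dendritic cells of both libraries. For Vegfa the intervals of monocytes and macrophages overlapped in both libraries. The plot of levels by class shows all 9 genes.

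**Figure D1:**
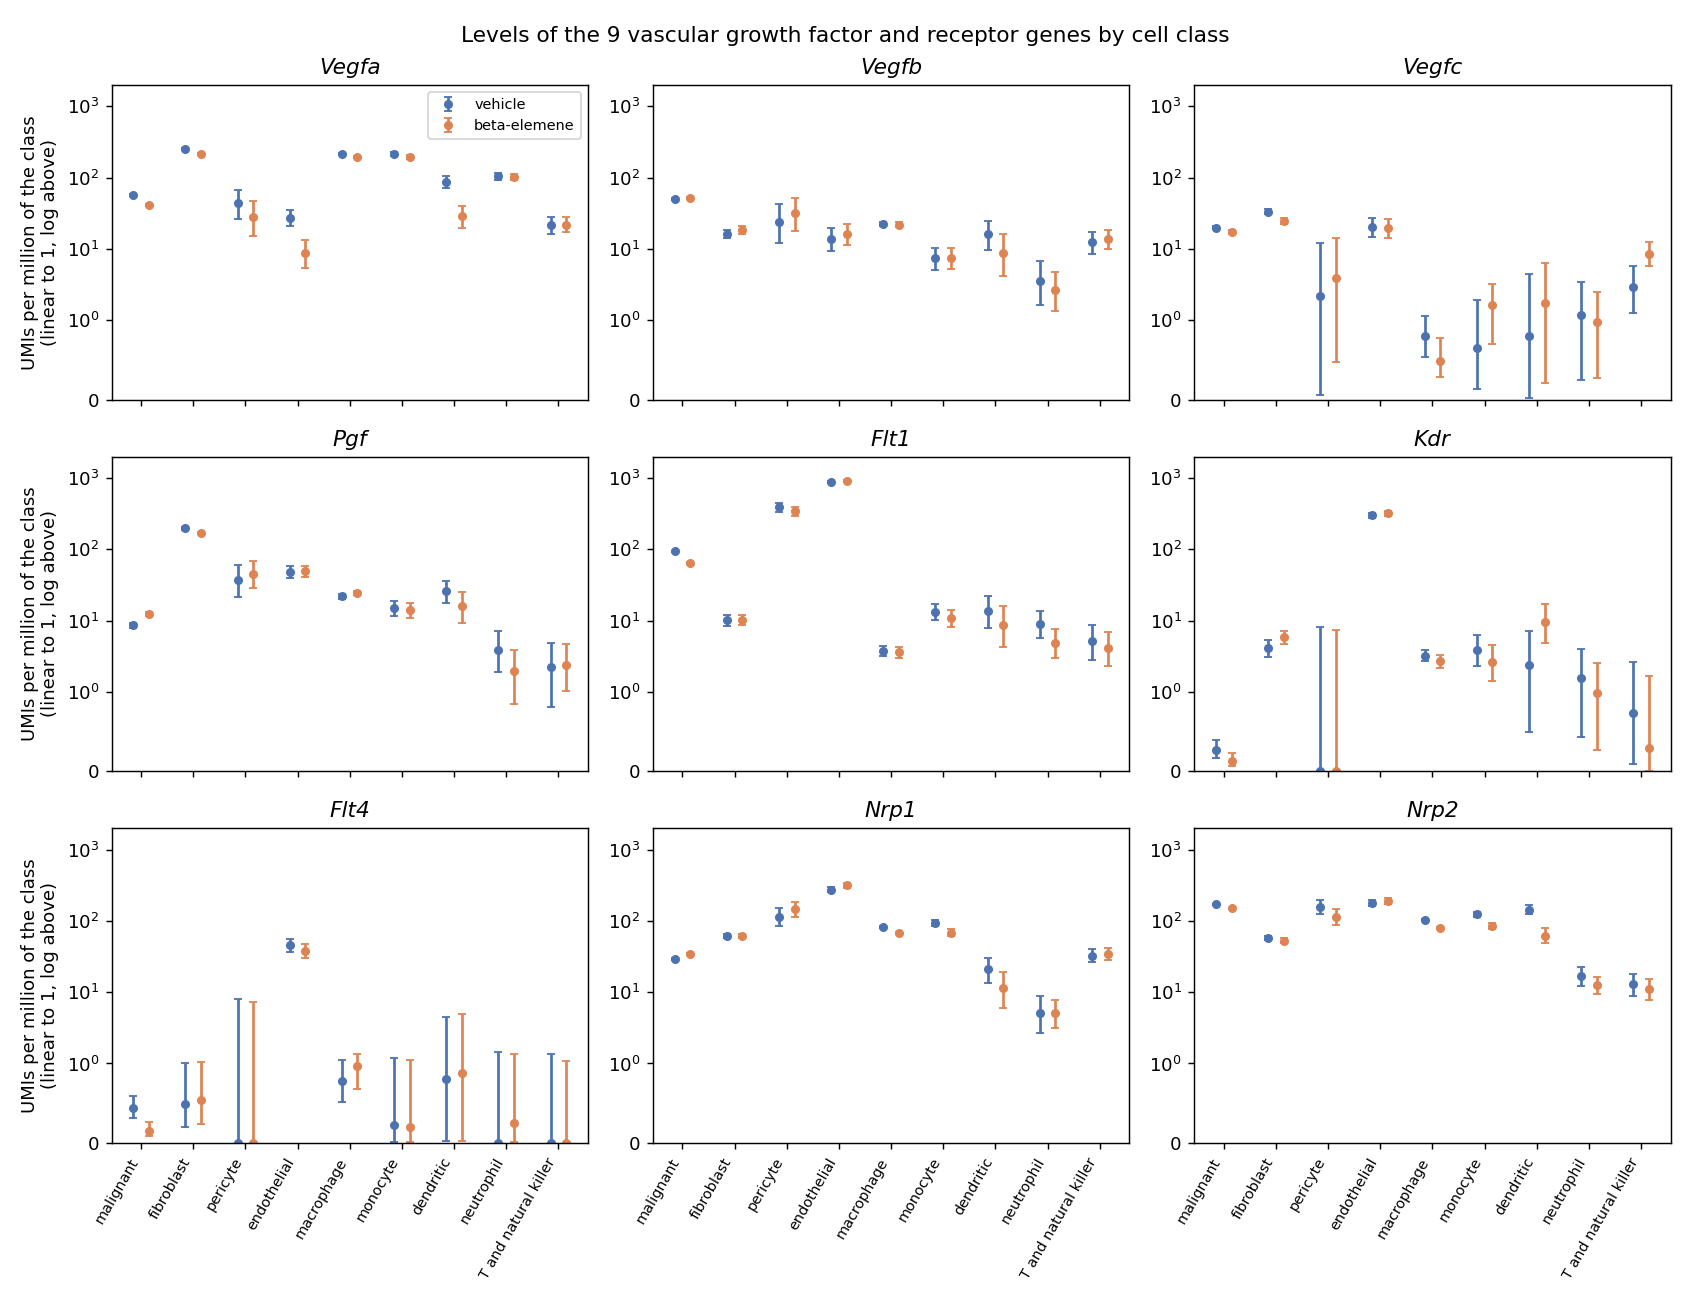
Level of each gene (CPM, axis linear to 1 and logarithmic above) in 9 cell classes of the vehicle and the β-elemene library, with 95% Poisson intervals that cover counting error only. Flt1 stood at 881 and 906 in endothelial cells, and Vegfa at 57.8 and 41.4 in malignant cells.

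Because classes differ in cell number and in RNA per cell, the class with the highest level was often not the class with most of the molecules. Macrophages, 26.3% and 27.6% of cells, held 42.0% of Vegfa UMIs in vehicle and 46.0% in β-elemene. Malignant cells, 35.9% and 27.4% of cells, held 28.9% and 21.6% of Vegfa UMIs, and fibroblasts, 6.28% and 6.14% of cells, held 19.8% and 21.4%. Malignant cells held 78.5% and 75.6% of Vegfb UMIs, 74.2% and 72.5% of Vegfc UMIs, and 15771 of 21903 and 11845 of 16778 Nrp2 UMIs. Fibroblasts held 60.6% and 54.9% of Pgf UMIs. Endothelial cells, 1.86% and 1.85% of cells, held 73.7% and 76.7% of Kdr UMIs, but 16.8% and 26.8% of Flt1 UMIs, because malignant cells held 77.1% and 65.3%. These shares move with class size as well as with level.

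**Figure D2:**
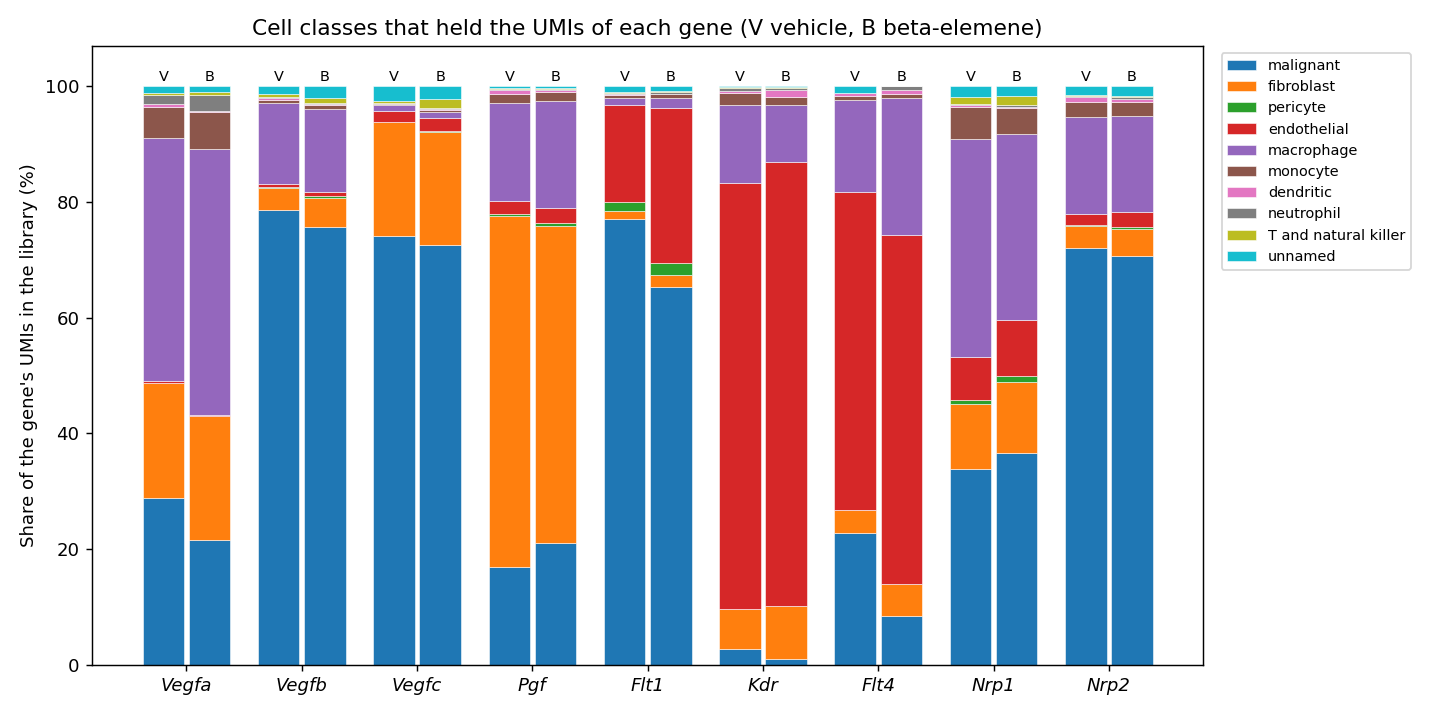
Share of the UMIs of each gene (%) held by each cell class, for the vehicle (V) and β-elemene (B) library. Macrophages held 42.0% and 46.0% of Vegfa, and malignant cells 77.1% and 65.3% of Flt1.

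Under β-elemene 2 of these levels moved past the limit used here. A ratio was called when it was at least 1.5-fold, its interval excluded 1 and the sums of the 2 libraries together held at least 100 UMIs. In 8 classes with at least 100 cells per library this could be judged for 38 of 72 pairs of gene and class. No pair was called higher and 2 were called lower, both in dendritic cells (Vegfa and Nrp2), while 36 were called neither way. Among all genes that could be judged, 1.24% were called higher and 5.19% lower in malignant cells, 1.89% and 2.46% in fibroblasts, and 2.93% and 1.86% in endothelial cells. The shares were 0.646% and 1.58% in macrophages, 1.88% and 2.83% in monocytes, and 2.58% and 5.49% in dendritic cells. They were 1.24% and 2.94% in neutrophils and 2.06% and 2.41% in T and natural killer cells. Over all kept cells together none of the 9 genes was called, beside 1.38% of genes called higher and 4.13% called lower, and Flt1 had the lowest ratio (0.740, 0.719 to 0.762).

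**Figure D3:**
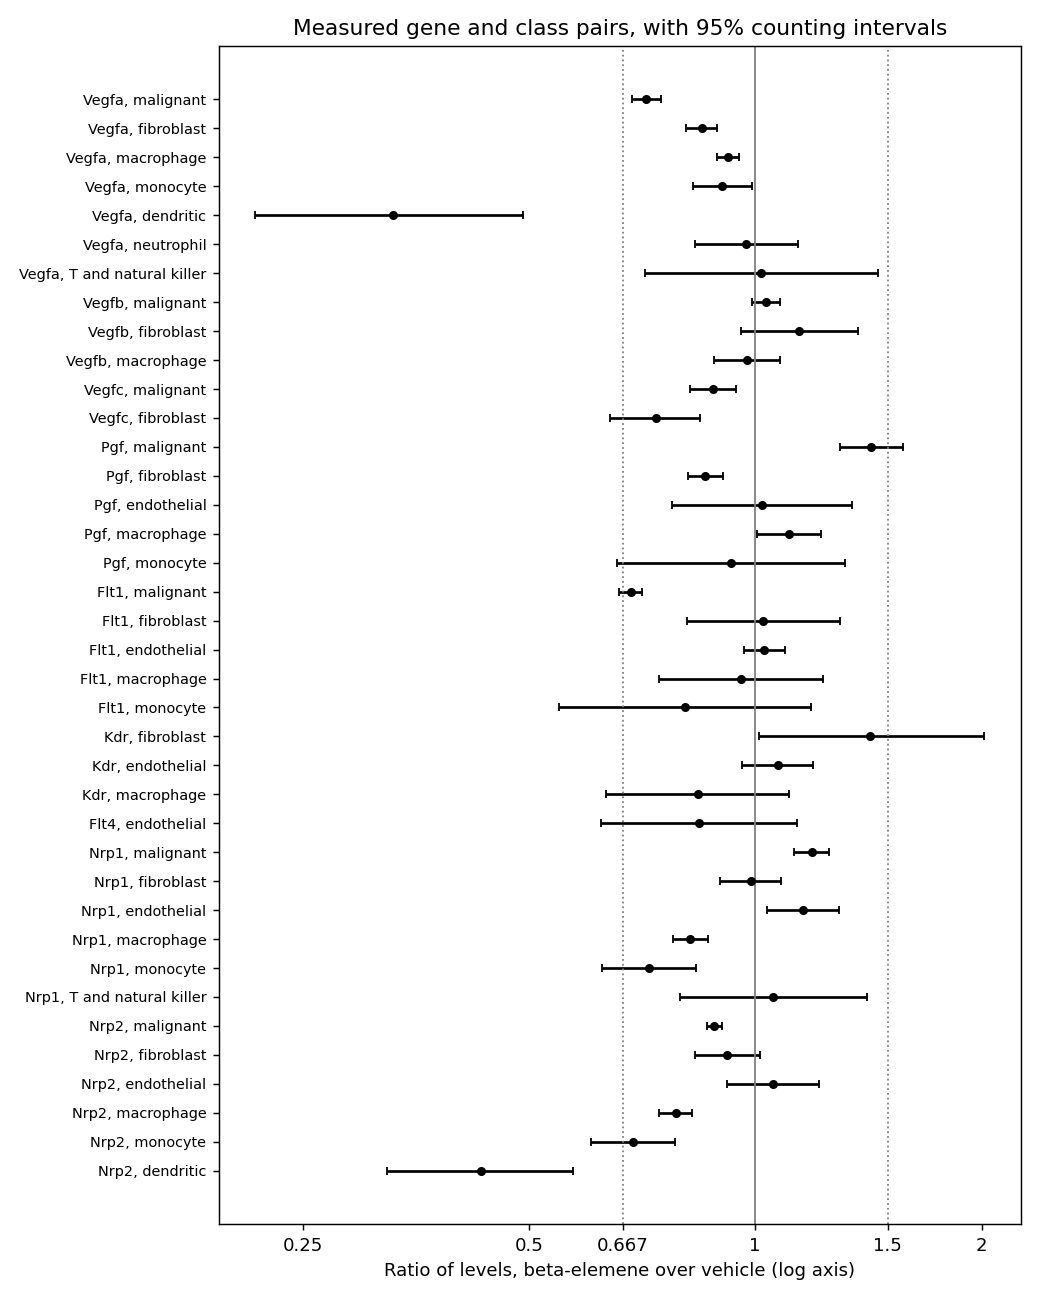
Ratio of levels, β-elemene over vehicle (log axis), for the 38 pairs of gene and class with at least 100 UMIs. Bars are 95% intervals of counting error and dotted lines mark 1.5-fold in either direction. Vegfa and Nrp2 in dendritic cells lie beyond the lower line, and Flt1 in malignant cells lies just inside it at 0.683.

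Vegfa, the main growth factor for vessels, stood in malignant cells at 57.8 CPM in vehicle (56.2 to 59.4) and 41.4 in β-elemene. The ratio was 0.716 (0.685 to 0.748), so the counting interval lay below 1 but within 1.5-fold. A Vegfa UMI was seen in 46.6% and 41.5% of malignant cells at median depths of 21713 and 23001 UMIs. After each cell was thinned to 1000 UMIs, which left out 11 and 3 shallower cells, the shares were 5.42% and 3.68%. T and natural killer cells, taken as the background of free RNA, with median depths of 4058.5 and 4430 UMIs, had a Vegfa UMI in 5.61% and 6.86% of cells and at 1000 UMIs in 1.62% and 0.482%, after 32 and 19 cells were left out.

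Within the malignant class Vegfa was highest in a hypoxic-like state. Sub-cluster 0, built without the 9 genes and led by Ero1l, Vegfa itself, Bnip3, Ndrg1 and Car9, genes induced at low oxygen, held 1011 vehicle and 508 β-elemene cells, or 26.9% and 17.6% of the class. Vegfa stood there at 112 and 108 CPM, a ratio of 0.960 (0.900 to 1.02), and this sub-cluster held 51.5% and 44.7% of malignant Vegfa UMIs. In the other 8 sub-clusters with at least 50 cells per library Vegfa ranged from 18.9 to 63.4 CPM in vehicle and from 16.1 to 59.4 in β-elemene. The highest of these 8 was led by S100a9, S100a8 and Il1b, neutrophil and myeloid genes, so it may hold mixed cells, which was not tested. All 9 ratios lay below 1, as they did for 3.68% of genes measured in malignant cells (for 4.94% all lay above 1). They were lowest in the sub-cluster led by histone genes (43.1 and 25.6 CPM, ratio 0.593, 0.517 to 0.680) and in the one led by Lcn2 (36.9 and 22.2 CPM, ratio 0.602, 0.509 to 0.711). With the sub-cluster mix of vehicle held fixed, an alternative added after the data were seen, the malignant Vegfa ratio was 0.850.

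Genes of a separate hypoxia list had ratios at or above 1 in the same class. Of a list of 12 hypoxia genes all were measured in malignant cells, 1 was called higher, none was called lower, and their median log2 ratio was 0.27, beside -0.01 for all measured genes. The called gene, named after its values were seen, was Ankrd37 (22.3 and 34.2 CPM, ratio 1.53, 1.45 to 1.62). The most abundant, Ndrg1, stood at 298 and 306 CPM, Higd1a, a mitochondrial protein, at 142 and 170.4, P4ha1, a collagen prolyl hydroxylase, at 139 and 153, and Ero1l, an oxidase for protein folding, at 72.8 and 91.6. Summed over the list, the hypoxic-like sub-cluster stood at 1625 CPM in vehicle and 2390.2 in β-elemene, and 6 of 9 sub-clusters were higher in β-elemene. In the hypoxic-like cells the list sum was thus higher, while the interval of the Vegfa ratio spanned 1. Hypoxia regulators of the pathway list described below, named after their values were seen, went both ways in malignant cells. Egln1 had a ratio of 0.696 and Hif1a of 0.895, while Vhl had 1.31. The intervals of Arnt, Hif1an and Epas1 spanned 1.

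**Figure D4:**
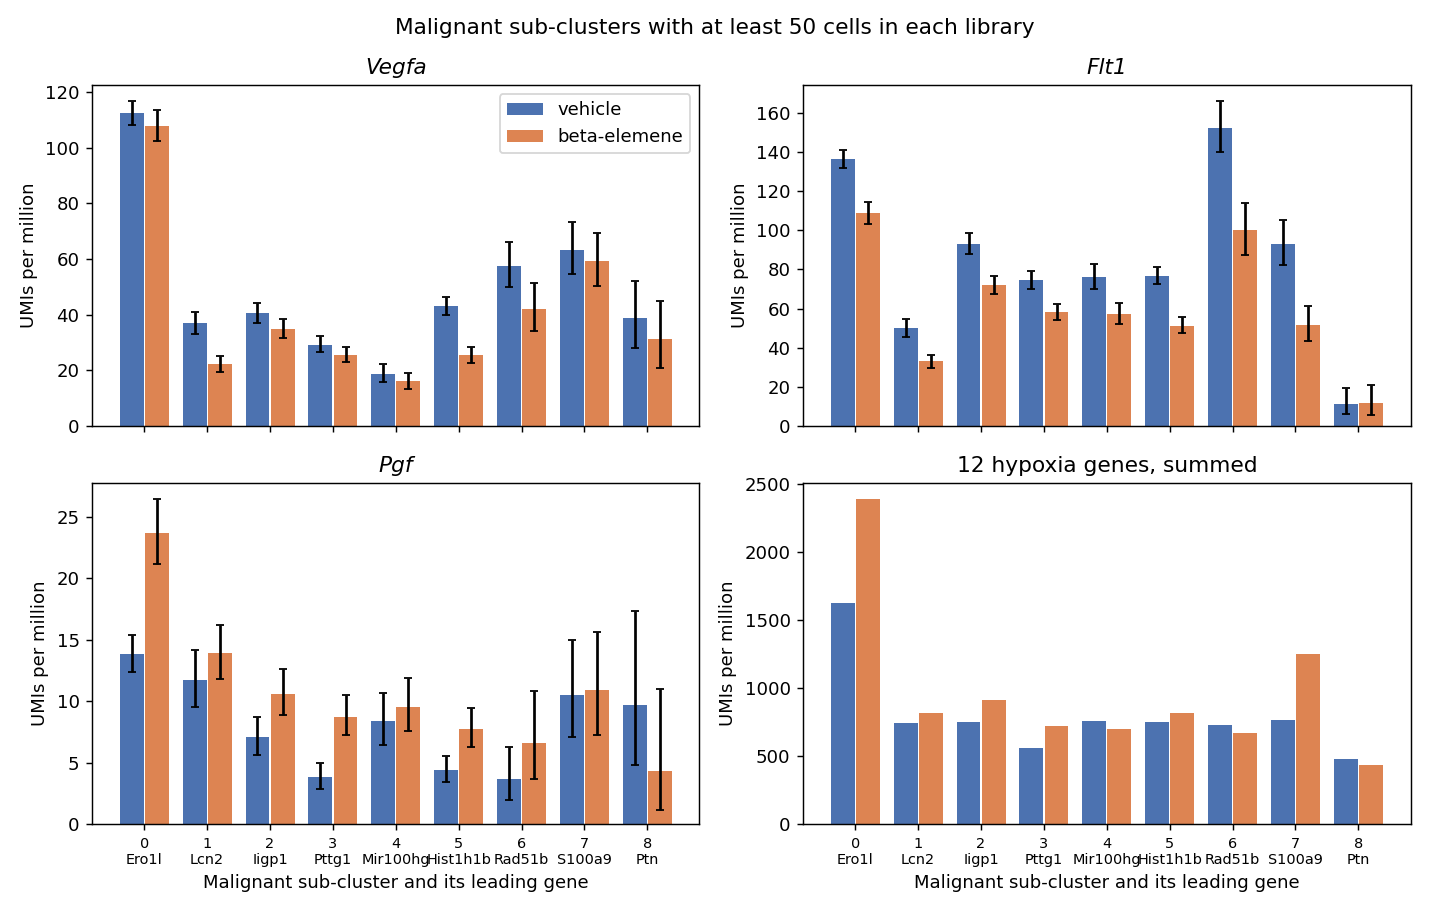
Levels (CPM) of Vegfa, Flt1 and Pgf, and the sum over 12 hypoxia genes, in the 9 malignant sub-clusters with at least 50 cells per library, each named by its leading gene. Bars are vehicle and β-elemene, and error bars are 95% Poisson intervals of counting error. Sub-cluster 0 (Ero1l) had the highest Vegfa, 112 and 108, and its Pgf stood at 13.9 and 23.7.

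Fibroblasts had 253 CPM of Vegfa in vehicle and 215 in β-elemene (ratio 0.848, 0.809 to 0.890), with a UMI in 68.8% and 70.0% of cells. The fibroblast states differed from each other far more than the libraries did. Sub-cluster 7, led by Krt19, Cryab, Pgf and Cox4i2, had 866 CPM of Vegfa over both libraries together, where its 39 and 44 cells were pooled. Sub-cluster 2, led by Ndufa4l2, a respiratory chain protein induced by hypoxia, had 589 and 533 CPM. These 2 states were 6.37% and 12.4% of fibroblasts and held 18.3% and 29.8% of fibroblast Vegfa UMIs, and their summed hypoxia list was highest, at 4955 and 3834 CPM. The sub-cluster led by Clec3b, Ly6a and Pi16, genes of adventitial fibroblasts, had 36.7 CPM of Vegfa. Across 10 fibroblast sub-clusters of at least 50 cells Vegfa and the hypoxia sum had a Spearman correlation of 0.758, and across 12 malignant and 9 macrophage sub-clusters of 0.524 and 0.733. This was not particular to Vegfa. Across the malignant sub-clusters the correlation was 0.601 for Nrp2, 0.559 for Nrp1, 0.552 for Vegfc and 0.517 for Flt1. It was 0.308 for Pgf and 0.273 for Vegfb. Across the fibroblast sub-clusters it was 0.721 for Pgf. The points share 2 libraries, and the values are a description. Vegfa had the lowest fibroblast ratio in the sub-cluster led by Saa3 and Cxcl5 (258 and 169 CPM, ratio 0.656, 0.556 to 0.773). Of 5 fibroblast sub-clusters with at least 50 cells per library, 3 had Vegfa ratios above 1, with intervals that spanned 1. The other 2 had ratios below 1, with intervals that excluded 1.

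Macrophages had 214 CPM of Vegfa in vehicle and 197 in β-elemene (ratio 0.920, 0.890 to 0.9505), and monocytes, their blood-borne precursors, 215 and 195 (0.904, 0.826 to 0.989). A Vegfa UMI was seen in 67.5% and 63.6% of macrophages. Vegfa was highest in the macrophage sub-cluster led by Cxcl3, Inhba and Vcan (319 and 281 CPM) and in the monocyte sub-cluster led by Cxcl3 and Inhba (473 and 401). It was lowest in the macrophage sub-cluster led by Cd163, Cbr2 and Lyve1, genes of tissue-resident macrophages (32.5 and 25.5 CPM). All 8 macrophage sub-clusters with at least 50 cells per library had Vegfa ratios below 1, from 0.774 to 0.961, as did 3.2% of genes measured in macrophages (for 3.84% all lay above 1). Neutrophils had 104 and 101 CPM of Vegfa (ratio 0.973, 0.832 to 1.14). Among neutrophils Vegfa ranged from 24.1 and 23.2 CPM in the sub-cluster led by Ngp and Ly6g, genes of younger neutrophils, to 208 and 202 in the one led by Fnip2 and Mreg, where the hypoxia list summed to 5852 and 6048 CPM.

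Dendritic cells, the antigen-presenting cells of the tumour, gave the lowest Vegfa ratio among classes with at least 100 UMIs. Vegfa stood at 87.7 CPM in vehicle (109 UMIs in 130 cells) and 28.9 in β-elemene (33 UMIs in 130 cells), a ratio of 0.330 (0.216 to 0.491). Of these UMIs 86 and 11 came from a sub-cluster of 34 and 18 cells led by Dcstamp, Mmp12 and C1qa, which are macrophage genes. Summed over 8 macrophage markers, the dendritic class stood at 1737 CPM in vehicle and 616 in β-elemene, with 0 and 1 of the 8 markers at 0. Without this sub-cluster and one led by immunoglobulin genes, an alternative added after the data were seen, the dendritic Vegfa ratio was 0.782 on 23 and 20 UMIs, too few to judge. Endothelial Vegfa had a ratio of 0.318 (0.181 to 0.536) on 59 and 20 UMIs, under that minimum, of which 41 and 8 came from 10 and 8 cells of a sub-cluster led by the myeloid genes Il1b and Lyz2.

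Pgf, placental growth factor, was a fibroblast ligand that also appeared at low level in malignant cells. Fibroblast Pgf stood at 196 CPM in vehicle and 169 in β-elemene (ratio 0.858, 0.813 to 0.906). Fibroblast sub-cluster 7 held 40.3% of fibroblast Pgf UMIs at 1491 CPM over both libraries, and sub-cluster 2 held 32.1% at 434 and 504 CPM, so both ligands were highest in these 2 states. In the sub-cluster led by Gzme, Serpine2 and Col7a1 Pgf was 63.6 and 108 CPM (ratio 1.69, 1.36 to 2.11). Of 5 fibroblast sub-clusters with at least 50 cells per library, 3 had Pgf ratios above 1 and 2 below, unlike the class as a whole. Sub-cluster 7 had too few cells to be among these 5. A Pgf UMI was seen in 39.0% and 42.3% of fibroblasts, at median depths of 20820 and 21830 UMIs. In T and natural killer cells the shares were 1.02% and 1.25%, at lower depths of 4058.5 and 4430 UMIs.

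Malignant Pgf stood at 8.59 CPM in vehicle and 12.3 in β-elemene, a ratio of 1.43 (1.30 to 1.57), which ran opposite to Vegfa. A Pgf UMI was seen in 14.3% and 20.3% of malignant cells, and at 1000 UMIs in 0.962% and 1.08%. In 8 of 9 malignant sub-clusters the Pgf ratio lay above 1, as for 12.5% of genes measured there. The exception was the sub-cluster led by Ptn and Prlr. In the hypoxic-like sub-cluster Pgf stood at 13.9 and 23.7 CPM (ratio 1.71, 1.46 to 1.997) and in the one led by the mitotic gene Pttg1 at 3.83 and 8.77 (ratio 2.29, 1.65 to 3.21). With the vehicle sub-cluster mix held, the malignant Pgf ratio was 1.54 and would be called higher. In endothelial cells Pgf stood at 48.1 and 49.1 CPM, and in their sub-cluster 0, with the tip cell genes Esm1 and Apln among its leading genes, at 58.2 and 112 (ratio 1.92, 1.30 to 2.90). Single cells held 36 of the 103 and 38 of the 112 endothelial Pgf UMIs. Sub-cluster 0 held 37 and 89 of these UMIs, so the β-elemene cell with 38 lay in it. Macrophage Pgf was 21.9 and 24.3 CPM.

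Vegfb and Vegfc came mostly from malignant cells. Vegfb, a growth factor linked to lipid uptake more than to vessel growth, stood in malignant cells at 50.2 CPM in vehicle and 51.9 in β-elemene (ratio 1.03, 0.990 to 1.08). Over the malignant sub-clusters Vegfb ranged from 20.3 to 61.4 CPM in vehicle, and a UMI was seen in 59.5% and 63.9% of malignant cells. Macrophages had 22.6 and 22.0 CPM of Vegfb and fibroblasts 16.1 and 18.4. Vegfc, the lymphatic growth factor, stood in fibroblasts at 33.5 and 24.7 CPM (ratio 0.737, 0.642 to 0.846), in malignant cells at 19.8 and 17.3 (0.878, 0.818 to 0.942) and in endothelial cells at 20.6 and 19.7. In macrophages it was 0.801 and 0.486 CPM. T and natural killer cells held 8 Vegfc UMIs in vehicle and 29 in β-elemene, of which 1 cell held 9, too few to judge.

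Kdr, the main signalling receptor, was the most endothelial of the 9 genes. It stood at 299 CPM in vehicle and 320.1 in β-elemene, from 640 and 730 UMIs in 195 cells of each library, with a ratio of 1.07 (0.961 to 1.19). A Kdr UMI was seen in 78.5% and 76.4% of endothelial cells at median depths of 9447 and 8939 UMIs, and in 0.170% and 0.156% of T and natural killer cells. At 1000 UMIs, with 8 and 9 endothelial cells left out, the shares were 24.1% and 22.0%. Kdr was at 0 UMIs in all 39 and 38 pericytes, which allows up to 6.58 and 5.94 CPM at 3 counts. Fibroblasts had 4.10 and 5.83 CPM of Kdr, with 12.4 and 23.8 in the sub-cluster led by Clec3b and Pi16, and macrophages had 3.23 and 2.71. Malignant cells had 24 and 10 Kdr UMIs, or 0.261 and 0.128 CPM.

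Endothelial Flt1 was likewise close in the 2 libraries, at 881 CPM in vehicle and 906 in β-elemene (ratio 1.03, 0.965 to 1.09). Pericytes, the mural cells around capillaries, had 388 and 343 CPM of Flt1 from 177 and 173 UMIs, beside no Kdr. Over both libraries the endothelial sub-cluster led by Piezo2, Robo1 and Nox4, with 23 and 25 cells, had the highest level of Flt1 (1381 CPM), of Kdr (515) and of Flt4 (96.3). The sub-cluster led by Sult1a1, Thrsp and Cd300lg had the lowest Flt1, at 562 CPM.

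Malignant cells carried Flt1 but almost no Kdr. Flt1 stood there at 94.2 CPM in vehicle (8674 UMIs) and 64.3 in β-elemene (5044 UMIs), a ratio of 0.683 (0.660 to 0.707), the lowest of the 7 members judged in malignant cells. A Flt1 UMI was seen in 66.4% and 59.1% of malignant cells, and at 1000 UMIs in 8.89% and 6.001%. In T and natural killer cells the share was 1.70% and 1.25%, and at 1000 UMIs 0.180% and 0.482%. In 8 of 9 malignant sub-clusters the Flt1 ratio lay below 1, as for 11.1% of genes measured there, and the exception, led by Ptn and Prlr, was low in Flt1 in both libraries (11.5 and 11.9 CPM). Flt1 was highest in the sub-cluster led by Rad51b and Pola1, genes of DNA replication and repair (152 and 100.1 CPM), and in the hypoxic-like one (136 and 109). With the vehicle sub-cluster mix held, the malignant Flt1 ratio was 0.763. Flt1 in fibroblasts was 10.1 and 10.3 CPM, and 1 vehicle cell held 40 of the 145 UMIs there. A fibroblast sub-cluster led by Krt18, Krt8 and Epcam, malignant markers, held 24.1% and 53.2% of these Flt1 UMIs, and without it and a sub-cluster led by S100a9 the fibroblast Flt1 ratio was 0.643 and would be called lower.

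Flt4, the receptor for Vegfc, was found mainly in endothelial cells, at 45.3 and 38.1 CPM (97 and 87 UMIs, ratio 0.842, 0.623 to 1.14). A UMI of Prox1, the master regulator of lymphatic endothelium, was seen in 8 and 3 endothelial cells, and these held 25 and 6 of the Flt4 UMIs. At this depth a cell with no Prox1 UMI may still be lymphatic, so the other Flt4 UMIs were not assigned. In other classes Flt4 was below 1 CPM, and pericytes and T and natural killer cells had no Flt4 UMI in either library.

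Nrp1 and Nrp2, the co-receptors, were shared between vessels, myeloid cells and malignant cells. Endothelial Nrp1 stood at 273 CPM in vehicle and 317 in β-elemene (ratio 1.16, 1.04 to 1.29), and endothelial Nrp2 at 179.9 and 189.9 (1.06, 0.918 to 1.21). Macrophage Nrp1 stood at 82.7 and 67.8 CPM (0.820, 0.777 to 0.866) and macrophage Nrp2 at 102 and 79.7 (0.784, 0.746 to 0.823). Monocyte Nrp1 was 94.3 and 68.2 CPM (0.723, 0.625 to 0.835) and monocyte Nrp2 124 and 85.1 (0.688, 0.605 to 0.782). The monocyte Nrp1 ratio was 1.13 at a clustering resolution of 2.0. Of the 568 vehicle UMIs of Nrp2 in monocytes 1 cell held 87, and without the highest cell of each library the ratio was 0.757. In the main setting the macrophage and monocyte ratios of both co-receptors lay below 1 and inside the 1.5-fold limit, and the endothelial ones lay above 1. In 7 of 8 macrophage sub-clusters the Nrp2 ratio lay below 1, as for 10.9% of genes measured there (10.7% lay above 1 in at least 7).

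Among macrophages the sub-clusters highest and lowest in Vegfa stood the other way round for Nrp1, though not every state did. The sub-cluster led by Cd163, Cbr2 and Lyve1, the lowest in Vegfa, had 366 and 331 CPM of Nrp1 and 300.2 and 267 of Nrp2. It was 9.76% and 8.81% of macrophages and held 37.6% and 36.6% of macrophage Nrp1 UMIs. The sub-cluster led by Cxcl3 and Inhba, the highest in Vegfa, had 18.8 and 19.5 CPM of Nrp1 and 78.0 and 73.9 of Nrp2. In monocytes the sub-cluster led by Ccl8 and Cbr2 had 226 and 189 CPM of Nrp1 and 62.0 and 33.3 of Vegfa. It held 292 of 433 and 238 of 337 monocyte Nrp1 UMIs, and Cd163 and C1qb were also among its leading genes. Summed over 8 macrophage markers, the monocyte class stood at 9005 CPM in vehicle and 9605 in β-elemene. Its own 7 markers summed to 3503 and 4022 CPM, so these may be macrophage-like cells, which was not tested. The macrophage sub-cluster led by Mmp12 and Atp6v0d2 was high in all 3 genes, with 269 and 241 CPM of Vegfa and 135 and 94.1 of Nrp2. Its Nrp1 stood at 101 and 66.0 CPM (ratio 0.653, 0.571 to 0.746). Of 8 macrophage sub-clusters with at least 50 cells per library, 6 had Nrp1 ratios below 1 and 2 above. In the one led by Cxcl9 it was 1.19 (1.02 to 1.39). In fibroblasts Nrp1 was also low where Vegfa was high, with 20.3 and 5.54 CPM over both libraries in sub-clusters 2 and 7, while the one led by Reg3g and Lpl had 124.

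**Figure D5:**
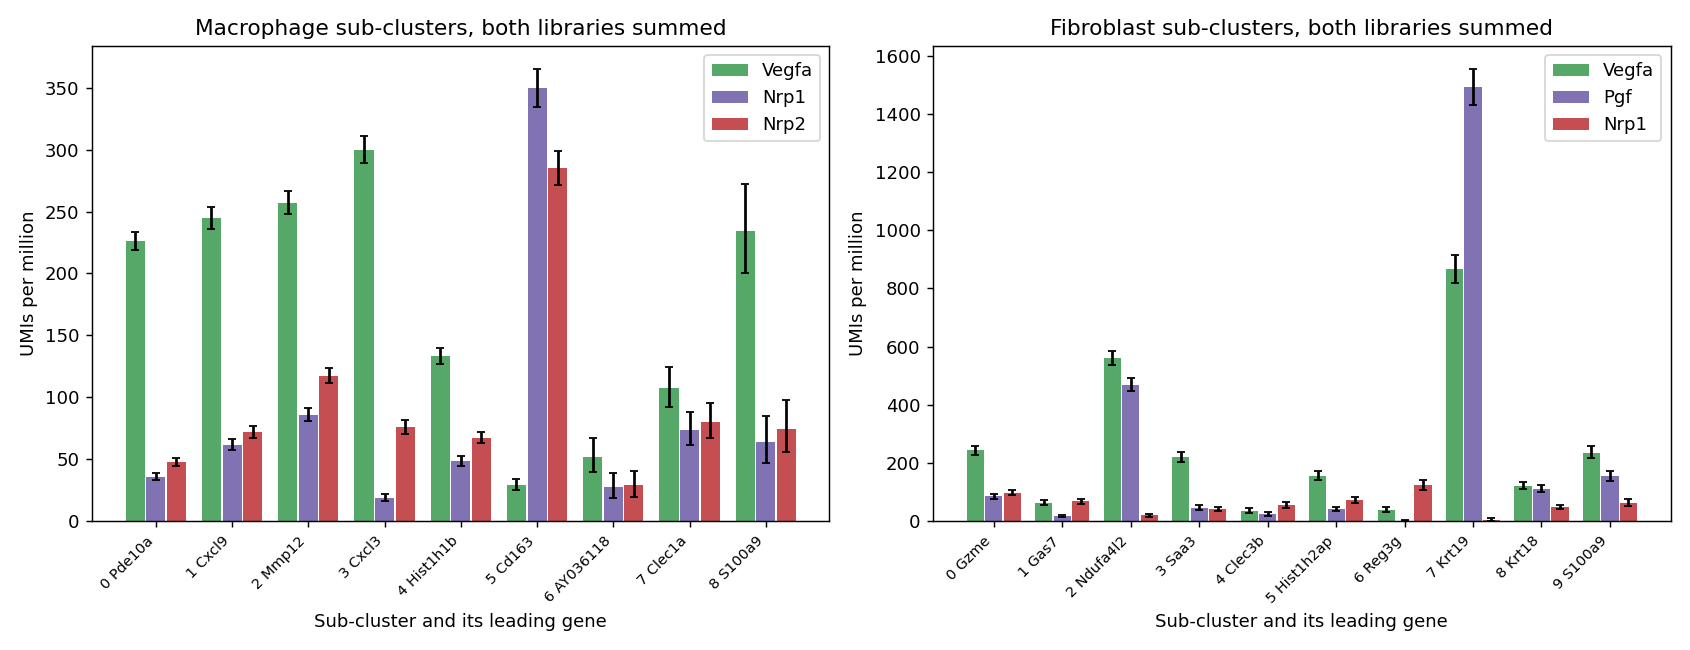
Levels (CPM, both libraries summed) of Vegfa, Nrp1 and Nrp2 in macrophage sub-clusters and of Vegfa, Pgf and Nrp1 in fibroblast sub-clusters of at least 50 cells, each named by its leading gene. Error bars are 95% Poisson intervals. The Cd163 macrophage sub-cluster had 29.3 of Vegfa and 350 of Nrp1, and the Krt19 fibroblast sub-cluster 866 of Vegfa and 5.54 of Nrp1.

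Malignant Nrp1 stood at 29.0 CPM in vehicle and 34.5 in β-elemene (ratio 1.19, 1.13 to 1.25) and malignant Nrp2 at 171 and 151 (0.882, 0.862 to 0.904). In the hypoxic-like sub-cluster these turned, with a ratio of 0.840 for Nrp1 and 1.05 for Nrp2. The sub-cluster led by Mir100hg and Lyst had the highest malignant Nrp1 (68.5 and 79.0 CPM). Fibroblast Nrp1 was 61.8 and 60.9 CPM, and Nrp1 of T and natural killer cells 32.7 and 34.5. Within that class Nrp1 was 56.1 and 73.5 CPM in the sub-cluster led by Foxp3, the regulator of regulatory T cells, 62.3 and 54.0 in the one led by S1pr1, Tbc1d4 and Tnfsf8, and 137 over both libraries in the one led by Lgals7 and Scin. Dendritic Nrp2 was called lower, at 144 CPM in vehicle (179 UMIs) and 62.2 in β-elemene (71 UMIs), a ratio of 0.432 (0.324 to 0.572). Of these UMIs 125 and 50 lay in 35 and 30 cells of the sub-cluster led by Ccl5, Fscn1 and Ccl22, genes of migrating dendritic cells. Without the sub-clusters led by macrophage and immunoglobulin genes the dendritic Nrp2 ratio was 0.387 (0.283 to 0.525).

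In single cells the receptors overlapped mainly in endothelium. UMIs of both Kdr and Flt1 were seen in 71.3% of vehicle and 71.8% of β-elemene endothelial cells, of Flt1 alone in 14.9% and 14.9%, and of Kdr alone in 7.18% and 4.62%. In malignant cells 66.0% and 58.8% had Flt1 without Kdr. A neuropilin without any of Flt1, Kdr and Flt4 was seen in 60.7% and 52.9% of macrophages, 25.2% and 32.4% of malignant cells and 55.9% and 58.1% of fibroblasts. In endothelial cells it was seen in 0.513% and 4.62%, and in T and natural killer cells in 13.1% and 13.1%. These shares depend on depth, so classes are not ranked by them.

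The other genes of the pathway, a list of 59 signalling partners, semaphorins, plexins and hypoxia regulators, were mostly called neither way. In malignant cells 49 were measured and none was called, with the most abundant, the kinase Prkca and the small GTPase Cdc42, at 301 and 288 CPM and at 268 and 259 CPM. Their median log2 ratio was -0.06, beside -0.01 for all measured genes. Of all measured genes there 1.24% were called higher and 5.19% lower. In endothelial cells 46 were measured, 2 were called higher and 1 lower, beside 2.93% and 1.86% of all measured genes. The higher ones were Prkca (23.4 and 42.5 CPM, ratio 1.82, 1.28 to 2.62) and the adaptor Nck2 (25.7 and 39.5, 1.54, 1.09 to 2.19), and the lower one Sema3g, an arterial semaphorin (39.7 and 18.0, 0.453, 0.304 to 0.665). Sema3g was among the leading genes of a sub-cluster that was 12.3% and 8.21% of endothelial cells. Cdh5, the endothelial cadherin, stood at 937 and 946 CPM and the phosphatase Ptprb at 531 and 476.

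In macrophages 43 of the 59 were measured and 4 were called lower, none higher. They were the oxygen-sensing factor Epas1 (13.5 and 8.80 CPM, ratio 0.654), Plxna2 (2.71 and 1.74, 0.643), the heat shock protein Hspb1 (6.33 and 3.80, 0.6002) and Sema3c (2.43 and 1.46, 0.599). Hif1a, the other oxygen-sensing factor, stood at 345 and 267 CPM there, and Cdc42 at 519 and 535. Fibroblasts had 49 measured and 2 called lower, Sema3e (7.99 and 5.30 CPM, 0.663) and Notch1 (14.1 and 9.39, 0.666), with Cdc42 at 352 and 368 and Hif1a at 328 and 282. Monocytes had 29 measured and 2 called lower, Plxnd1 (29.6 and 18.2 CPM, 0.614) and Prkca (34.0 and 21.8, 0.643), with Cdc42 at 568 and 621 and Hif1a at 478 and 374. Dendritic cells had 17 measured, with Pik3ca called higher (33.8 and 51.7 CPM, 1.53) and Prkca lower (144 and 77.1, 0.536), and the most abundant were Cdc42 (520.5 and 635) and the kinase Fyn (492 and 493). Of 21 measured in neutrophils and 29 in T and natural killer cells none was called. Among all measured genes 1.58% were called lower in macrophages, 2.46% in fibroblasts, 2.83% in monocytes and 5.49% in dendritic cells. In dendritic cells 2.58% were called higher. Hif1a stood at 409 and 432 CPM in neutrophils and 509.6 and 366 in T and natural killer cells, where Prkca stood at 484 and 397, and neutrophil Cdc42 at 550.3 and 572. The median log2 ratio of the list was -0.08 in macrophages, -0.17 in monocytes, -0.16 in T and natural killer cells, -0.04 in fibroblasts, 0.03 in neutrophils and 0.01 in endothelial cells. For all measured genes of these classes it was -0.01, -0.01, -0.02, 0.05, -0.02 and 0.07. In dendritic cells it was -0.0018 for the list and -0.02 for all measured genes.

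Across 16 sums of class and library the genes most like each member were ranked by Pearson r of log2(CPM + 1) over 11807 genes. The sums share 2 libraries and their depth, so r is a description. Kdr was closest to Ccdc85a (0.974), Cdh5 (0.963) and Hoxb5 (0.963), Flt4 to Nova2, Tmem255b and Sncg (0.984, 0.984 and 0.983), and Flt1 to Kcnq1 (0.974), Podxl (0.972) and Sema3f (0.969). Vegfa was closest to Ufsp2 (0.922), Pdpn (0.907) and Lpar1 (0.900), and Pgf to Creb3 (0.976), Mdga1 (0.953) and Slc39a7 (0.952). Vegfb was closest to Mrpl13 (0.966), Tk1 (0.965) and Hddc2 (0.960), and Vegfc to Ryk (0.966), Csgalnact1 (0.960) and Lysmd2 (0.955). Nrp1 was closest to Nus1 (0.973), Pggt1b (0.961) and Tmem65 (0.947), and Nrp2 to Cttnbp2nl (0.957), Shb (0.952) and Cdc42bpb (0.945).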

How the data were processed

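Dissociated 4T1 tumour cells were profiled with a 3' version 3 droplet kit, per the labels' protocols. The authors deposited UMI counts per gene and barcode, unnormalised, written by Cell Ranger 7.1.0 per the file headers and aligned with Cell Ranger and STAR to mm10 per the submitters' processing notes. The rule that called cells, the use of intron reads and the annotation release are not given in the sources used here. Groups came from the sample titles. Barcodes with at least 200 genes and at most 20% mitochondrial UMIs were kept, and 338 and 315 called doublets were removed with scanpy 1.11.5. Both libraries were clustered together (2000 variable genes without the 9 members, 30 principal components, 15 neighbours, Leiden resolution 1.0, sub-clusters 0.6). Clusters were named from marker lists with at least 3 markers detected in at least 10% of cells and a score gap of at least 0.25. UMIs were summed per class, and the calculation was tested on simulated data. All 9 members are named in every class compared. Pathway genes are named where called, with the 2 most abundant and, in malignant cells, the hypoxia regulators. Hypoxia genes are the 4 most abundant and the one called. Of like genes the 3 with the highest r are named. The members and lists were chosen with earlier results of these data known. Alternatives were resolutions 0.5 and 2.0, doublets kept, a stricter cell filter (500 genes, 10% mitochondrial), the members among the variable genes, other scalings, the mean over cells, 10 CPM added, no UMI minimum, 50 UMIs for the pathway list, thinning to 1000 UMIs, leaving out the highest cell, and the largest sub-cluster alone. Leaving out mixed sub-clusters and holding the vehicle sub-cluster mix were added after the data were seen.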

Additional observations from a re-analysis of the deposited data

Results flagged for a closer look

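In 2 of the 9 genes the ratio of β-elemene over vehicle lay above 1 in some classes and below 1 in others, each with a counting interval that excluded 1. Pgf had a ratio of 1.43 in malignant cells and 1.11 in macrophages, and 0.858 in fibroblasts. The fibroblast direction was not shared by all states that could be compared. Sub-cluster 7, which held more Pgf UMIs than any other fibroblast state, was not among them, with 39 and 44 cells. Of 5 fibroblast sub-clusters with at least 50 cells per library, 3 had Pgf ratios above 1 with intervals that excluded 1. The other 2 had ratios below 1 with intervals that spanned 1. Nrp1 had a ratio of 1.19 in malignant and 1.16 in endothelial cells, and 0.820 in macrophages and 0.723 in monocytes. The difference between classes was not tested, since each group was 1 library.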

How the results depend on the processing

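Of the 38 pairs of gene and class none was called higher in the main setting. The number called higher was 1 with the mean over cells (Pgf in endothelial cells), 3 in the largest sub-cluster of each class (Pgf in malignant, fibroblast and endothelial cells), 1 with the vehicle sub-cluster mix held (Pgf in malignant cells) and 2 with no UMI minimum (Vegfc in T and natural killer cells, 8 and 29 UMIs, and Kdr in dendritic cells, 3 and 11 UMIs). The number called lower was 2 in the main setting, 4 with doublets kept (also Nrp2 in monocytes and Vegfa in endothelial cells), 4 with no UMI minimum (also Flt4 in malignant and Vegfa in endothelial cells) and 1 in the largest sub-cluster (Vegfa in monocytes). Without mixed sub-clusters 2 were called lower, Nrp2 in dendritic cells and Flt1 in fibroblasts. The malignant ratio of Vegfa was 0.758 with 10 CPM added, 0.960 in the largest sub-cluster and 0.850 with the vehicle mix held, and that of Flt1 0.714, 0.800 and 0.763. Malignant Pgf was 1.20 with 10 CPM added and 1.71 in the largest sub-cluster. In the largest macrophage sub-cluster Nrp1 was 0.914 and Nrp2 0.898, and Nrp2 was 0.736 with the mean over cells and 0.824 with the vehicle mix held. Dendritic Vegfa was 0.501 with doublets kept and 0.782 without mixed sub-clusters. Endothelial Flt1 was 0.849 in the largest sub-cluster and Kdr 1.21 with the mean over cells. Adding 10 CPM to both libraries moves a ratio towards 1 by construction, and for the other settings the cause was not tested. With 50 in place of 100 UMIs as the minimum for the pathway list, 2 of 52 genes in place of 0 were called higher in fibroblasts. It was 3 of 48 in place of 2 in endothelial cells and 1 of 33 in place of 0 in T and natural killer cells. Among all genes measured at 50 UMIs, 2.41%, 4.18% and 2.51% were called higher there. Called lower were 3 of 26 in place of 1 in dendritic cells, 3 of 33 in place of 2 in monocytes and 5 of 48 in place of 4 in macrophages. Among all genes 6.16%, 3.99% and 2.39% were called lower there. Both dendritic pairs were called lower in every other setting run except in the largest sub-cluster, where the dendritic class was too small, and for Vegfa without mixed sub-clusters, and their ratios stayed below 1 in all of them. Scaling by the median ratio moved log2 ratios by at most 0.07. Low counts limit Flt4, Kdr outside endothelium, and all pericyte values. No paired analysis was possible because each group has 1 library.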
